A study of Mus musculus with 12 samples.

Results

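The 10 genes Tgfb1, Tgfb2, Tgfb3, Tgfbr1, Tgfbr2, Tgfbr3, Ltbp1, Ltbp2, Smad3 and Smad7, which encode the ligands, receptors, latent binding proteins and Smads of transforming growth factor-beta (TGF-beta) signaling, were followed in mouse aorta. They were found by their gene names on the array, which names 34797 genes, and all 10 were among the 22755 genes tested. The array carries 17 probes for them, of which 16 were kept and 1 probe of Ltbp1 was not well above background on any array. TGF-beta is secreted in a latent form, bound to its own propeptide and to a latent TGF-beta binding protein that anchors it to the extracellular matrix. Once released, the ligand binds the type II receptor, which activates the type I receptor, and the type I receptor phosphorylates Smad2 and Smad3, which enter the nucleus with Smad4. In the aortic wall this pathway governs matrix production and the smooth muscle phenotype, and inherited defects in its receptors, in Smad3 or in fibrillin-1 cause aortic aneurysm and dissection.

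Aortic RNA of adult male mice was hybridised to 12 one-color microarrays, 3 for each of 4 groups. WT mice were Socs3 fl/fl littermates without the SM22-Cre transgene, and smSocs3-KO mice were Socs3 fl/fl with SM22-Cre, in which the smooth muscle promoter SM22 drives the recombinase. The labels give 129S5/SvEvBrd, C57BL6 and SJL as the strain of both. Each genotype was sampled before challenge and at day 3 of a challenge with BAPN (150 mg/kg/day), an inhibitor of lysyl oxidase, and AngII (1000 ng/kg/min), a pressor hormone, both delivered by osmotic minipumps. The deleted gene, Socs3, did not fall below WT in the deletion groups. Its log2 difference from WT was 0.49 (standard error 0.53) before challenge and 1.52 (standard error 0.53, limma adjusted p = 0.208) at day 3, so these are called the arrays labeled smSocs3-KO. RNA of the whole tissue was measured, and the extent of the deletion was not.

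Between 55.4% and 61.2% of the spots were well above background, and no spot was saturated. All 6 WT arrays and 1 array labeled smSocs3-KO before challenge lay on slide 1, and the other 5 arrays labeled smSocs3-KO lay on slide 2. At day 3 the genotype and the slide therefore cannot be told apart. Blocking on the slide rests on that 1 bridging array, smSocs3-KO replicate 1 before challenge, and for challenge responses gives the same values as the fit without that array. With that block no gene of all tested was called between genotypes at day 3. The bridging array also stood apart in its markers. Its summed smooth muscle signal was 3602, compared with 2445 and 2473 in replicates 3 and 4 of its group, and 2737 to 3032 in WT before challenge. Its macrophage sum was 331, compared with 139 and 147, and 191 to 237. All 8 smooth muscle markers were well above background on every array. WT day 3 replicate 4 stood apart in its proliferation markers, with a summed signal of 7.85, compared with 59.8 and 58.2 in replicates 1 and 3 and 1.56 to 2.30 before challenge. Its value lay within the range of the day 3 arrays labeled smSocs3-KO, 6.51 to 22.5. Signals are given as log2 relative to the 75th percentile of the array, which sets arrays side by side for 1 gene and does not rank genes by abundance. The p-values rest on the spread between arrays within groups, pooled over all 4 groups and moderated across genes by limma. Omitting an array of 1 group therefore changes the p-values of the others. That spread may be technical, since the labels do not say that the arrays came from separate mice. In whole tissue, fewer cells of a type and less RNA per cell cannot be told apart.

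Over both genotype labels, the binding protein gene Ltbp2 and the inhibitory Smad gene Smad7 rose after 3 days of BAPN + AngII, by 1.90-fold and 1.68-fold. With the settings used here no ligand or receptor gene passed the adjusted threshold in any comparison, although Tgfb1, Tgfb3, Tgfbr2 and Tgfbr3 did so under some alternatives. In the mean of both challenge responses, 2 of the 10 genes were called by limma at a Benjamini-Hochberg adjusted p under 0.05, where 22.7% of all genes tested were called. In WT alone 1 of 10 was called (4.68% of all genes) and under the smSocs3-KO label 0 of 10 (2.45%), where 5 of the 10 had an unadjusted p under 0.05 (23.8% of all genes). The median absolute log2 difference was 0.37 for the 10 genes in WT, compared with 0.36 over all genes tested. With the smSocs3-KO label it was 0.54, compared with 0.34. At the threshold used by the study, p under 0.01 with a fold change above 4 or below 0.25, 0 of the 10 genes passed in either genotype, compared with 1.28% of all genes in WT and 1.63% under the smSocs3-KO label.

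**Figure D1:**
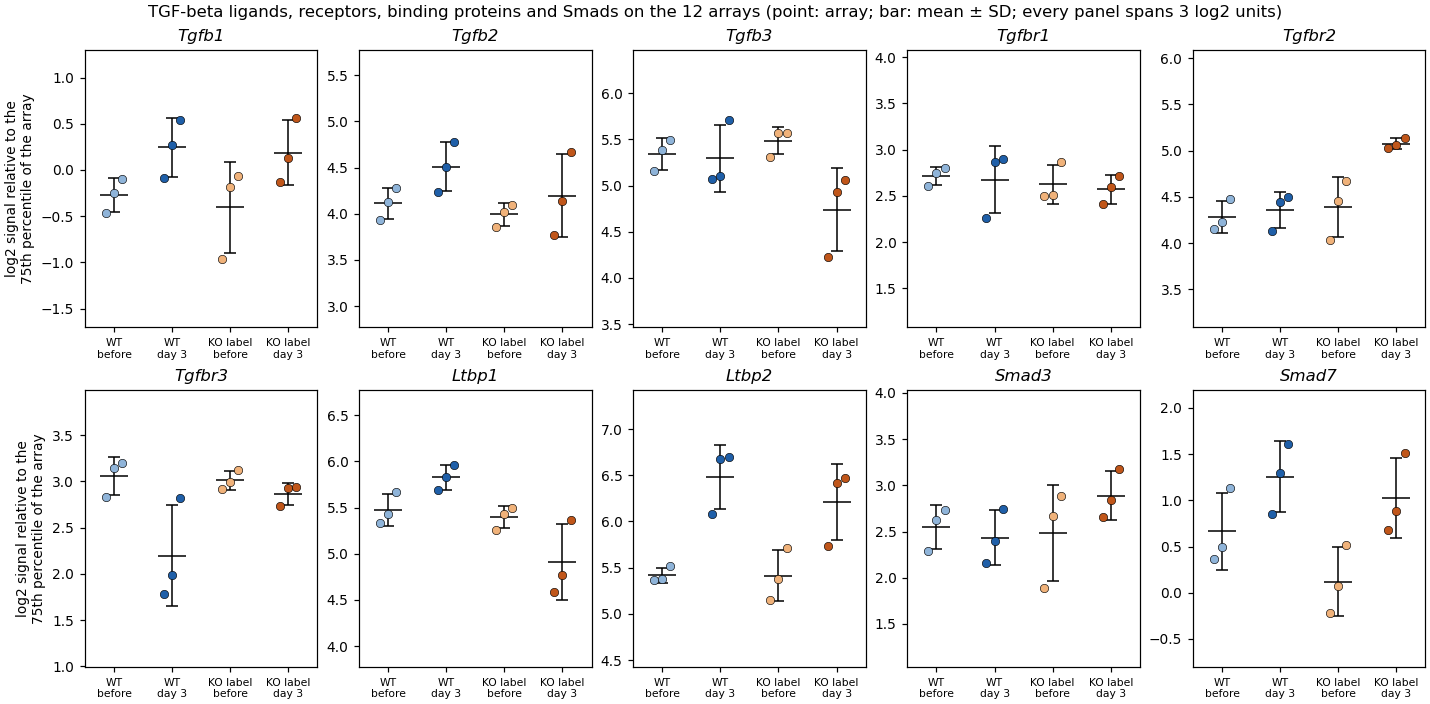
Log2 signal (vertical axis, relative to the 75th percentile of the array) of each of the 10 genes on the 12 arrays, 3 points per group, with the mean and SD of the group as bars. The 6 day 3 arrays of Ltbp2 lie between 5.74 and 6.69, above the 6 arrays before challenge, and the day 3 arrays labeled smSocs3-KO lie apart from the day 3 WT arrays for Tgfbr2 and Ltbp1.

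Ltbp2 encodes a fibrillin-like matrix protein of elastic fibers, which belongs to the latent binding protein family but does not itself bind latent TGF-beta. Its probe lies on chromosome 12 from 86124167 to 86124226 (mm9, minus strand). Before challenge its log2 signal on WT arrays was 5.38, 5.51 and 5.36 (replicates 1, 2 and 3), and at day 3 it was 6.69, 6.67 and 6.08 (replicates 1, 3 and 4). The arrays labeled smSocs3-KO gave 5.71, 5.15 and 5.38 before challenge (replicates 1, 3 and 4) and 6.42, 6.47 and 5.74 at day 3 (replicates 2, 3 and 5), and the same order of replicates is kept for all genes. No array before challenge reached the lowest array at day 3, although smSocs3-KO replicate 1 before challenge and replicate 5 at day 3 were close. The challenge response was 1.06 in WT (standard error 0.25, limma adjusted p = 0.0400) and 0.79 under the smSocs3-KO label (standard error 0.25, limma adjusted p = 0.0980), and the mean of both was 0.93 (standard error 0.17, limma adjusted p = 0.00816). The mean response passed in all 22 alternatives that could give it, with a limma adjusted p from 0.0020 to 0.0306. With only the groups compared or the replicate block, no gene of all tested was called in WT. The same held without WT replicate 1 or 2 before challenge, or without WT day 3 replicate 1 or 3. Including these, the Ltbp2 call in WT alone was lost in 13 of 23 alternatives. The WT response lay from 0.76 to 1.26 in all 23, and stayed at 1.06 where an array labeled smSocs3-KO was omitted. Without any one of WT replicates 1, 2 and 3 before challenge, WT day 3 replicates 1 and 3, smSocs3-KO replicate 4 before challenge and smSocs3-KO day 3 replicates 2 and 3, its limma adjusted p lay between 0.0506 and 0.177.

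Ltbp1 encodes the binding protein that is covalently linked to latent TGF-beta and holds it in the matrix. Its kept probe lies on chromosome 17 from 75790530 to 75790589 (mm9, plus strand). The log2 signal was 5.43, 5.33 and 5.67 in WT before challenge and 5.83, 5.69 and 5.96 in WT at day 3. The arrays labeled smSocs3-KO gave 5.43, 5.50 and 5.26 before challenge and 5.37, 4.77 and 4.59 at day 3. The WT day 3 arrays all lay above those before challenge, narrowly, and the groups labeled smSocs3-KO overlapped through day 3 replicate 2. The challenge response was 0.35 (standard error 0.21, limma adjusted p = 0.299) in WT and -0.49 (standard error 0.21, limma adjusted p = 0.186) under the smSocs3-KO label. The interaction, the second response minus the first, was -0.84 (95% interval -1.48 to -0.19, unadjusted p = 0.0154 and limma adjusted p = 0.897).

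**Figure D2:**
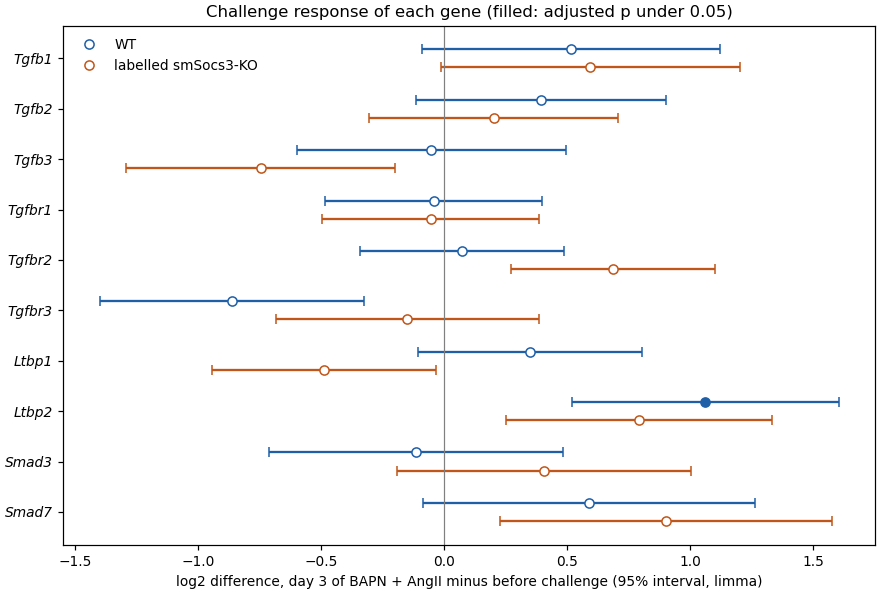
Challenge response of the 10 genes (horizontal axis, log2 difference of day 3 of BAPN + AngII minus before challenge) in WT and on the arrays labeled smSocs3-KO, with 95% intervals from limma and filled points for an adjusted p under 0.05. Ltbp2 in WT, at 1.06, is the 1 filled point, and Ltbp1 is at 0.35 in WT and -0.49 under the smSocs3-KO label.

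The 3 ligand genes encode the dimeric growth factors that start the signal, of which Tgfb1 is made by many cell types including platelets and macrophages. The Tgfb1 probe (chromosome 7 from 26489877 to 26489936, mm9, plus strand) and the brighter Tgfb2 probe (chromosome 1 from 188449333 to 188449392, mm9, minus strand) target a stretch that is alike in both genes. Of the 60 bases of each probe, 41 can be aligned without gaps, and 28 of these are identical. The 30 aligned bases with the most identities, 24 of them, are shown, with the 6 bases that differ in capitals. They are where this pair of probes, the only ligand probes compared, is most alike. They were read 5′ to 3′ from the array files, on the strand of the gene (mm9).
Tgfb1, chr7:26489907-26489936: gcccaagGtGgaGcagTtGtccaaCatgat
Tgfb2, chr1:188449352-188449381: gcccaagAtCgaAcagCtTtccaaTatgat

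The log2 signal of Tgfb1 was -0.25, -0.10 and -0.46 in WT before challenge and 0.54, 0.28 and -0.09 in WT at day 3. On the arrays labeled smSocs3-KO it was -0.97, -0.19 and -0.06 before challenge and 0.57, -0.13 and 0.13 at day 3. The WT groups were narrowly apart, and the groups labeled smSocs3-KO overlapped. The mean challenge response was 0.56 (95% interval 0.13 to 0.98, limma adjusted p = 0.0612), close to the threshold and not past it. Without WT day 3 replicate 4 the limma adjusted p was 0.0380, and with the median of the array as the scale it was 0.0438. In the other 20 of 22 alternatives the mean response did not pass. Over all 22 it lay from 0.41 to 0.76, with a limma adjusted p up to 0.191. When single arrays were omitted, the response under the smSocs3-KO label lay from 0.31 to 0.77. The Tgfb1 probe is printed on 10 spots of each array, and the SD between these spots within an array had a median of 0.07 on the log2 scale, compared with SDs between arrays of a group from 0.183 to 0.492.

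By its brighter probe the log2 signal of Tgfb2 was 4.12, 3.94 and 4.28 (WT, before challenge) and 4.77, 4.24 and 4.51 (WT, day 3), with overlap. The smSocs3-KO label gave 4.10, 4.02 and 3.86 before challenge and 4.67, 4.14 and 3.77 at day 3, also with overlap. Tgfb2 gave a mean challenge response of 0.30 (95% interval -0.06 to 0.66, limma adjusted p = 0.196) by this probe and 0.01 (95% interval -0.42 to 0.44) by its other probe. Tgfb3, whose probe on chromosome 12 from 87397804 to 87397863 (mm9, minus strand) is also on 10 spots (median SD between spots 0.04), had a log2 signal of 5.15, 5.38 and 5.49 in WT before challenge and 5.07, 5.10 and 5.71 in WT at day 3. With the smSocs3-KO label it was 5.31, 5.57 and 5.57 before challenge and 4.93, 5.06 and 4.22 at day 3. Tgfb3 was thus lower on all 3 day 3 arrays labeled smSocs3-KO than on the 3 before challenge, while the WT groups overlapped. The response under that label was -0.75 (95% interval -1.29 to -0.20, limma adjusted p = 0.116), and in WT it was -0.05 (95% interval -0.60 to 0.50). The interaction was -0.69 (95% interval -1.47 to 0.08, limma adjusted p = 0.958). The mean response of Tgfb3, -0.40 (limma adjusted p = 0.118), passed without WT day 3 replicate 4 (-0.50, limma adjusted p = 0.0454) and with quantile normalization (-0.59, limma adjusted p = 0.0379). With the authors' table, that made 3 of 22 alternatives. Over all 22 the value lay from -0.59 to -0.20, with a limma adjusted p up to 0.562.

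Of the receptor genes, Tgfbr3 encodes betaglycan, the co-receptor that presents ligand, Tgfb2 above all, to the type II receptor. Its probe lies on chromosome 5 from 107535818 to 107535877 (mm9, minus strand). The log2 signal was 2.83, 3.20 and 3.15 in WT before challenge and 1.99, 1.78 and 2.82 in WT at day 3. The arrays labeled smSocs3-KO gave 2.92, 3.12 and 3.00 before challenge and 2.92, 2.73 and 2.94 at day 3. WT day 3 replicates 1 and 3 were the lowest of the 12 arrays, and replicate 4, the array that stood apart in its proliferation markers, was just below the lowest WT array before challenge. The WT response was -0.86 (standard error 0.24, limma adjusted p = 0.0628) and -1.17 without that replicate (limma adjusted p = 0.00268). The smSocs3-KO response was -0.15 (95% interval -0.68 to 0.39), and the interaction was 0.71 (95% interval -0.04 to 1.47, limma adjusted p = 0.953). The mean response was -0.51 (limma adjusted p = 0.0555), and without WT day 3 replicate 4 it was -0.66 (limma adjusted p = 0.00318). With quantile normalization Tgfbr3 passed in WT (-1.02, limma adjusted p = 0.0455) and in the mean (-0.64, limma adjusted p = 0.0204), and likewise in the authors' table. The WT response passed in 4 of 23 alternatives, with values from -1.17 to -0.65 and a limma adjusted p up to 0.242 over all 23. The mean response passed in 5 of 22, with values from -0.66 to -0.30 and a limma adjusted p up to 0.360 over all 22.

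Tgfbr2 encodes the type II receptor, which binds the ligand first. It has a pair of probes on chromosome 9 (mm9, minus strand), the brighter from 115997155 to 115997214 and the other from 115999496 to 115999555, with 2281 bases between them. The sequence of the dimmer probe is open for 19 codons and then ends in a stop codon, so it lies at the end of the coding sequence and the brighter probe lies 3′ of it. The last 30 bases of the dimmer probe are shown to place it, with the stop codon in capitals.
Tgfbr2, chr9:115999496-115999525: gaagatggctcgctgaacactaccaaaTAG

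By the brighter probe, the log2 signal of Tgfbr2 was 4.15, 4.23 and 4.48 in WT before challenge and 4.50, 4.14 and 4.44 in WT at day 3. On the arrays labeled smSocs3-KO it was 4.04, 4.67 and 4.46 before challenge and 5.06, 5.03 and 5.14 at day 3. The 3 day 3 arrays labeled smSocs3-KO were the highest of the 12. The response was 0.07 (95% interval -0.34 to 0.49) in WT and 0.69 (standard error 0.19, limma adjusted p = 0.0745) under the smSocs3-KO label. The interaction was 0.61 (95% interval 0.03 to 1.20, unadjusted p = 0.0423 and limma adjusted p = 0.926). Both values use the bridging array, smSocs3-KO replicate 1 before challenge, which at 4.04 was the lowest of the 12. When single arrays were omitted, the response under the smSocs3-KO label lay from 0.51 to 0.83. The probe at the stop codon gave another pattern. It read 0.73, 0.66 and 0.28 (WT, before challenge), -0.08, 0.11 and -0.07 (WT, day 3), 1.17, -0.18 and 0.13 (smSocs3-KO, before challenge) and 0.22, 0.10 and 0.57 (smSocs3-KO, day 3), so that WT arrays were apart and the others overlapped. It gave a response of -0.57 (95% interval -1.23 to 0.10) in WT and -0.08 (95% interval -0.74 to 0.59) under the smSocs3-KO label. The mean response was thus 0.38 by the brighter probe (95% interval 0.08 to 0.68 in the fit over 32275 probes) and -0.32 by the other (95% interval -0.79 to 0.15), and the difference between the probes was not tested.

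Tgfbr1 encodes the type I receptor, the kinase that phosphorylates Smad2 and Smad3, and has 4 kept probes. By the brightest probe (chromosome 4 from 47427736 to 47427795, mm9, plus strand), the log2 signal lay between 2.26 and 2.90 on all 12 arrays, and the mean response was -0.05 (95% interval -0.36 to 0.26). By the other 3 probes it was -0.55, -0.74 and -0.55, with unadjusted p of 0.0150, 0.0157 and 0.0724 and limma adjusted p of 0.0599, 0.0616 and 0.164 over 32275 probes. The first of these 3, assigned to the same RefSeq transcript as the brightest probe, read -0.26, -0.48 and -0.42 in WT before challenge and -0.86, -1.41 and -0.41 at day 3, with overlap through WT day 3 replicate 4. It read -0.55, -0.74 and -0.42 before challenge and -1.65, -1.02 and -0.83 at day 3 on the arrays labeled smSocs3-KO, without overlap. The others are assigned to Ensembl transcripts and lie nearer the 5′ end of the gene. The last of the 3 was dim, with a mean log2 signal of -3.78 (2.65 for the brightest probe), and well above background on 11 of 12 arrays.

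**Figure D3:**
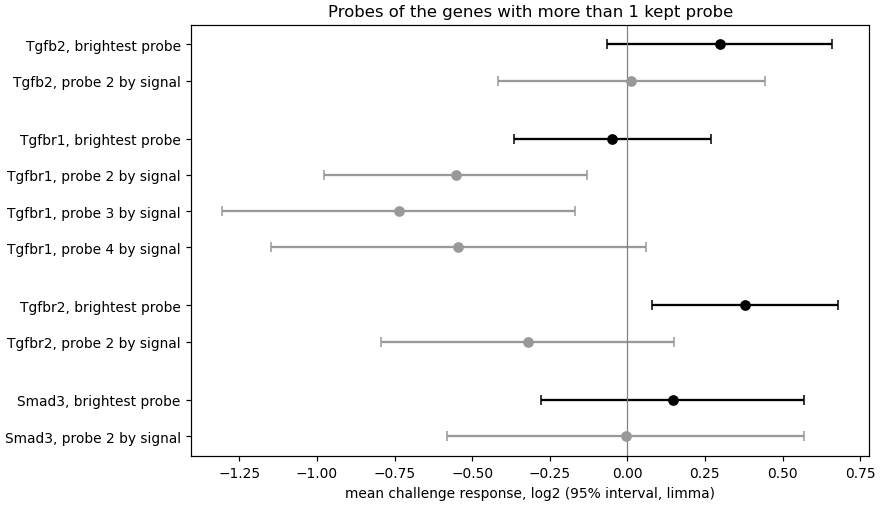
Mean challenge response (horizontal axis, log2, with 95% intervals from limma) for each kept probe of the 4 genes that have more than 1, the brightest probe of each gene in black and the others in gray. The brightest Tgfbr1 probe is at -0.05 and its other 3 probes lie between -0.74 and -0.55, and the Tgfbr2 probes lie at 0.38 and -0.32.

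Smad7, on chromosome 18, encodes the inhibitory Smad that blocks the type I receptor and is itself switched on by the signal. The log2 signal was 0.50, 0.36 and 1.14 in WT before challenge and 1.30, 0.85 and 1.61 in WT at day 3. With the smSocs3-KO label it was -0.22, 0.51 and 0.07 before challenge and 0.89, 1.51 and 0.68 at day 3. The groups labeled smSocs3-KO did not overlap, and the WT groups overlapped through replicate 3 before challenge. The response was 0.59 (standard error 0.31, limma adjusted p = 0.242) in WT and 0.90 (standard error 0.31, limma adjusted p = 0.121) under the smSocs3-KO label. Their mean was 0.75 (standard error 0.22, limma adjusted p = 0.0326). This call was lost in 11 of 22 alternatives, of which the slide block and the omission of smSocs3-KO replicate 1 before challenge are the same fit, with a value from 0.62 to 0.95 in all of them. Without any one of WT replicates 1 and 2 before challenge, WT day 3 replicates 1 and 4, smSocs3-KO replicates 1 and 4 before challenge and smSocs3-KO day 3 replicates 2 and 3, its limma adjusted p lay between 0.0514 and 0.0812.

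Smad3 encodes a receptor-activated Smad that carries the signal to the nucleus. By its brighter probe (chromosome 9 from 63494574 to 63494633, mm9, minus strand), the log2 signal was 2.29, 2.73 and 2.63 in WT before challenge and 2.40, 2.75 and 2.16 in WT at day 3. The arrays labeled smSocs3-KO gave 1.89, 2.88 and 2.67 before challenge and 2.84, 2.65 and 3.17 at day 3. The groups overlapped under both labels. The mean response was 0.15 (95% interval -0.28 to 0.57, limma adjusted p = 0.589), and by the other probe it was -0.0053 (95% interval -0.58 to 0.57).

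Between the genotype labels, no gene of the 10 was called before challenge (0 of 10, compared with 0.0264% of all genes tested) or at day 3 (0 of 10, compared with 1.11%), nor in the genotype by challenge interaction (0 of 10, compared with 0% of all genes). At an unadjusted p under 0.05 in limma there were 0 of 10 before challenge (4.4% of all genes), 4 of 10 at day 3 (16.2%) and 2 of 10 in the interaction (5.33%). The groups of 3 arrays did not overlap in 3 of 10 genes at day 3, compared with 20.5% of all genes. Within WT the day 3 arrays did not overlap with those before challenge in 4 of 10 (35.3% of all genes), and under the smSocs3-KO label in 4 of 10 (28.1%).

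At day 3, Ltbp1 was lower on all 3 arrays labeled smSocs3-KO than on the 3 WT arrays, by 0.92 on the log2 scale (log2 difference -0.92, 95% interval -1.37 to -0.46, limma adjusted p = 0.0637). Without smSocs3-KO day 3 replicate 2 it was -1.15 (limma adjusted p = 0.0199). With the slide as a block, which rests on 1 array, it was -0.87 (standard error 0.38, limma adjusted p = 0.301). Tgfbr2 was higher on all 3 arrays labeled smSocs3-KO by its brighter probe, by 0.72 (95% interval 0.30 to 1.13, limma adjusted p = 0.105). With the slide as a block, through the same array, this difference was 0.19 (standard error 0.27, limma adjusted p = 0.737), and by the probe at the stop codon it was 0.31 (95% interval -0.36 to 0.98). Tgfbr3 differed by 0.67 (limma adjusted p = 0.222), with overlap between the groups, and by 0.98 without WT day 3 replicate 4 (limma adjusted p = 0.0228). That was the 1 of 23 alternatives in which it passed. Over all 23 the difference lay from 0.46 to 0.98, with a limma adjusted p up to 0.584. Tgfb3 differed by -0.56 without overlap (limma adjusted p = 0.304).

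Cell type markers moved beside these values, and their part in them was not tested. Rises and falls are counted at a limma adjusted p under 0.05. Of all genes tested, 22.7% were called in the mean response and 1.11% between genotypes at day 3. In the mean response the counts for smooth muscle, fibroblast, platelet, endothelium and neutrophil markers were near or below the 22.7%. Of the 8 smooth muscle markers, all well above background on each array, 0 rose and 1 fell in the mean response, and their summed signal relative to the 75th percentile went from 2737 to 3032 (WT, before challenge), 2150 to 2765 (WT, day 3), 2445 to 3602 (smSocs3-KO, before challenge) and 1750 to 2078 (smSocs3-KO, day 3). Of the 7 macrophage markers, 4 rose and 0 fell in the mean response, while their summed signal was 191 to 237, 160 to 273, 139 to 331 and 162 to 200 in the same order of groups. Of the 8 fibroblast markers, 2 rose in the mean response and 2 were higher under the smSocs3-KO label at day 3, with a summed signal of 777 to 904, 755 to 932, 818 to 897 and 943 to 1299. Of the 5 platelet markers 1 rose in the mean response, and their summed signal was 12.8 to 15.8, 22.4 to 26.0, 12.4 to 22.9 and 19.5 to 37.2. Of the 6 endothelium markers 1 rose, with 51.0 to 53.4, 63.1 to 73.0, 43.7 to 53.9 and 47.9 to 63.6, so that for both lists the WT day 3 arrays lay above those before challenge. The 5 proliferation markers all rose in the mean response, and 2 of 5 tested T lymphocyte markers fell. T lymphocyte signal was low, with 3 to 5 of 6 markers well above background on WT day 3 arrays and sums of 3.88 to 4.87. In WT 2 of the 5 fell (4.68% of all genes called), and under the smSocs3-KO label 0 did (2.45%). Of 5 tested neutrophil markers 1 rose in the mean response. The 4 mesothelium markers, 0 of which passed the adjusted threshold in limma between genotypes, summed to 3.68 to 21.6, 2.53 to 12.8, 25.7 to 56.9 and 28.4 to 37.9, so that both groups labeled smSocs3-KO lay above both WT groups.

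The other genes of the pathway, 60 in 5 lists, were examined beside the 10. Of these, 57 were tested, and Itgb6, Bambi and Foxh1 had no kept probe. In the mean challenge response 17 rose and 2 fell, where 22.7% of all genes were called. Within single genotypes 4 rose and 1 fell in WT (4.68% of all genes called), and 2 rose and 1 fell under the smSocs3-KO label (2.45%). The median log2 difference in the mean response was 0.10 over the 57 genes and -0.05 over all genes tested.

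Among 12 tested genes of the latent complex and its activation, 5 rose and 1 fell in the mean response (22.7% of all genes tested were called). Thbs1, thrombospondin-1, which releases TGF-beta from its latent complex, rose by 3.21 (standard error 0.57, limma adjusted p = 0.00731). It was 5.32 and 5.12 in WT day 3 replicates 1 and 3 and 1.76 in replicate 4, compared with 0.58 to 1.34 in WT before challenge. Lrrc33, now named Nrros, and Lrrc32, both of which tether latent TGF-beta to the cell surface, rose by 1.11 and 1.09 (limma adjusted p = 0.00783 and 0.0107). Fbn1, fibrillin-1, the scaffold that latent binding proteins attach to, rose by 0.95 (standard error 0.16, limma adjusted p = 0.00676). Ltbp4, named here for its direction after its values were seen, fell by 0.86 (standard error 0.18, limma adjusted p = 0.0111). Ltbp4 encodes a latent binding protein of elastic fibers, and its 6 day 3 arrays, at 6.22 to 7.37, all lay below the lowest of the 6 arrays before challenge, at 7.39. Its family member Ltbp2 thus changed in the other direction on the same arrays.

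Of 6 tested receptors and receptor partners 1 rose, where 22.7% of all genes tested were called in the mean response. It was Eng (0.68, standard error 0.15, limma adjusted p = 0.0138), which encodes the endothelial co-receptor endoglin. Of 9 Smads and nuclear partners 0 passed the adjusted threshold in limma, and Smad2, the partner of Smad3, named after its values were seen, had a mean response of 0.37 (95% interval 0.06 to 0.67, limma adjusted p = 0.0745). Of 11 inhibitors of the signal 2 rose, compared with the same 22.7% of all genes. They were Strap (0.92), which holds Smad7 at the receptor, and Tgif1 (0.74), a nuclear corepressor of Smads, with limma adjusted p of 0.0128 and 0.0157.

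Of 19 known target genes 9 rose and 1 fell in the mean response (22.7% of all genes tested were called). Among those with the largest responses were Snai1 (1.96, limma adjusted p = 0.00481), Lox (1.47, limma adjusted p = 0.00592) and Snai2 (0.98, limma adjusted p = 0.0264). Snai1 and Snai2 encode transcription factors of mesenchymal transition, and Lox encodes the crosslinking enzyme that BAPN inhibits. These genes also answer to signals other than TGF-beta. Acta2, Tagln and Cnn1, contractile genes in the same list that were also named after their values were seen, did not pass, with responses of -0.36, -0.30 and -0.33 (limma adjusted p 0.0768, 0.171 and 0.137).

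Cdkn2b encodes the cell cycle inhibitor p15 and is a classical target of TGF-beta. It was the 1 of 57 pathway genes called between the genotype labels, at day 3, where 1.11% of all genes tested were called. Its log2 signal was 0.57, 0.57 and 0.69 in WT before challenge and 0.63, 1.03 and 1.36 in WT at day 3. On the arrays labeled smSocs3-KO it was 1.40, 1.29 and 1.02 before challenge and -0.32, -0.39 and 0.21 at day 3, where all 3 arrays were lower than any other of the 12. It fell by 1.40 under the smSocs3-KO label (standard error 0.22, limma adjusted p = 0.0177), the WT value was 0.40 (limma adjusted p = 0.274), the genotype difference before challenge was 0.62 (unadjusted p = 0.0171, not past the adjusted threshold in limma), and the difference at day 3 was -1.18 (standard error 0.22, limma adjusted p = 0.0346). The fall in the mean response, by 0.50 (limma adjusted p = 0.0414), therefore averages responses of opposite sign. That call was lost in 14 of 22 alternatives, among them the median of the array as the scale (-0.30, limma adjusted p = 0.252). The interaction was -1.80 (95% interval -2.49 to -1.11), with an unadjusted p of 0.000138 and a limma adjusted p of 0.290. With the slide as a block, which rests on smSocs3-KO replicate 1 before challenge, the day 3 difference was -0.93 (limma adjusted p = 0.293), and over the alternatives that call passed in 10 of 23, with values from -1.37 to -0.93.

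**Figure D4:**
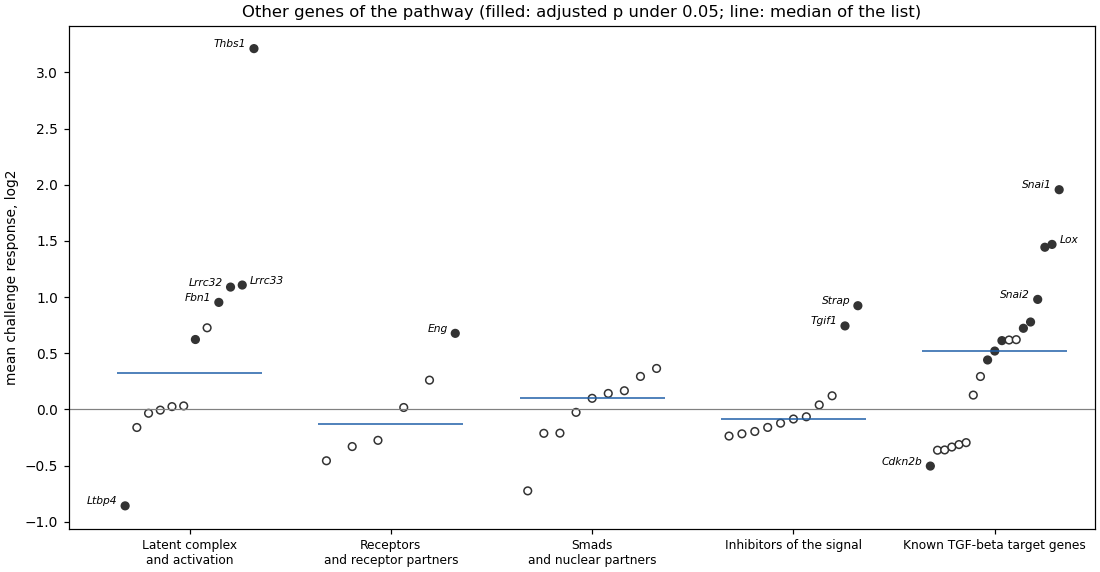
Mean challenge response (vertical axis, log2) of the 57 other pathway genes tested, by list, with filled points for a limma adjusted p under 0.05 and a line at the median of the list. Thbs1 is highest at 3.21, 9 of 19 target genes and 5 of 12 latent complex genes are filled above 0, and Ltbp4 and Cdkn2b are filled below 0. Of all genes tested, 22.7% were called in this response.

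The genes whose pattern over the 12 arrays was most like that of each of the 10 were sought among 19507 genes by Pearson's r, which is given as a description, since arrays share group and slide. For Ltbp2 the most alike was Pak3 (r = 0.958), for Ltbp1 Actn4 (0.966), and for Smad7 Kifap3 (0.911). For the ligands they were Haus5 and Dhrsx for Tgfb1 (0.954 and 0.931), Pde7a and 6230427J02Rik for Tgfb2 (0.941 and 0.908), and Rftn2 and Brwd1 for Tgfb3 (0.973 and 0.969). For the receptors they were Pank3 and Rest for Tgfbr1 (0.891 and 0.883), Tmem150a and Ssh2 for Tgfbr2 (0.958 and 0.949), and Gng7 and Zcchc3 for Tgfbr3 (0.957 and 0.940). Smad3 was most like Gramd1b and Lrrc8d (0.934 and 0.913). The next most alike of Ltbp2, Ltbp1 and Smad7 had no gene symbol.

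Promoters of 7 of the 10 genes, 9 sequences of RefSeq (GRCm38.p6), were searched on both strands over the 250 bases before the transcription start. Those of Smad7, Tgfb3 and Tgfbr3 were not available, so the counts below do not cover them. The Smad box CAGAC was present in 6 of 9, compared with 42.2% of all 32851 promoters, and the GC box GGGCGG in 4 of 9, compared with 32.7%. The palindromic Smad element GTCTAGAC was in 0 of 9 (0.167% of all promoters), the AP-1 site TGACTCA in 0 of 9 (4.46%) and the STAT site TTCNNNGAA in 0 of 9 (7.02%). The TATA box TATAAA was in 1 of 9 (12.4%), that of Tgfb2, 31 bases before the start. The pair of Smad boxes of Ltbp2, whose mean response passed in all alternatives, starts 205 and 176 bases before its start, the second on the opposite strand. Each is shown in capitals with its surroundings, followed by the TATA box of Tgfb2, which no other of the 9 has. All 3 are written on the minus strand of the genome, that of the gene. A match is a description of the letters and not of a bound site.
Ltbp2, chr12:84876679-84876708: cgctggtccaggCAGACgccatctgtcttt
Ltbp2, chr12:84876650-84876679: tccagtccccggGTCTGccctgtcgcccgc
Tgfb2, chr1:186706003-186706032: ttggggagcacaTATAAAactctgctccgg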

How the data were processed

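Aortic RNA was measured on 12 one-color Agilent arrays, 3 in each of 4 groups given by the sample labels. The authors deposited the scanner output, in which the processed signal is a background-subtracted intensity per spot on a linear scale (Feature Extraction 10.7.1.1 per the file headers, 9.5.1.1 per the submitters' processing notes), and a table of normalized intensity values, used as an alternative. A spot counted as well above background where it exceeded it by 13 SDs of the background. Control and outlier spots were removed, the log2 processed signals of a probe's spots were averaged, and each array was scaled to its 75th percentile. A probe was kept if every array of some group had it well above background (32275 of 55681), and each gene was represented by its brightest kept probe, which exists for all 10 genes. Group means were modeled with limma (version 3.58.1, R 4.3.3) for 22755 genes, over all of which p-values were adjusted (Benjamini-Hochberg). The mean challenge response averages both genotypes. The code was tested on simulated data. The 10 genes, the gene lists, the markers and the tests were chosen with earlier results of these data known. Genes were named by rule: all 10, the 4 largest called mean responses in each pathway list, those called between genotypes, and the 2 most alike genes of each of the 10. A target gene that the rule names is not reported here. Gene names are those of the array and matched current RefSeq symbols except Lrrc33 (Nrros) and Ctgf (Ccn2). Probe positions are mm9 as in the array files. Alternatives were other background correction, normalization, filters, probes, moderation, arrays in the fit, slide and replicate blocks, and the omission of each array. With 3 arrays against 3, an exact two-sided permutation test cannot go below p = 0.1.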

Additional observations from a re-analysis of the deposited data

How the results depend on the processing

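Signal over background limits dim probes, and 3 arrays per group limit the precision. Of 1104 values recomputed for 49 single-gene results, 981 kept their direction and side of the adjusted threshold, 72 lost a call, 22 gained one and 29 changed sign. The cause was not tested. Members called in the mean challenge response were 2 of 10, where 5176 of 22755 genes were called. They were 4 with quantile normalization (4857 of all genes), the authors' table (4833) and trend and robust moderation (5649). With no filter (3385 of 34794), the slide block (4102) and the replicate block (893) they were 1. Without an array they were 1 to 4 (2522 to 6433). The WT count was 1, where 1064 of all genes were called, and 2 with trend and robust moderation (1844). It was 0 with no filter (10 of 34794), only the groups compared or the replicate block (0 of all genes in each). Without an array it was 0 to 2 (0 to 3628 of all genes). Where no gene of all tested was called, a count of 0 says nothing particular about the 10. With quantile normalization or the authors' table (614 of all genes in each) the gene counted was Tgfbr3 in place of Ltbp2. The smSocs3-KO count (0, with 558 of all genes) was 1 with normexp (831), the median of the array (841) or trend and robust moderation (818). The day 3 genotype count (0, with 253 of all genes) was 1 with trend and robust moderation (342) and 0 to 1 without an array (45 to 615). Counts before challenge and in the interaction were 0 in all alternatives, with 0 to 14 and 0 to 10 of all genes called. Deviations from the group means correlated above 0.1 in 4 of 11 same-numbered pairs of arrays (range -0.40 to 0.46). The highest, 0.46 and 0.33, were replicates 1 and 3 of the groups before challenge. With 3 arrays in a group these correlations cannot settle whether the numbers pair the arrays. With the replicate block, Smad3 was 0.026 in WT, -0.068 under the smSocs3-KO label and -0.021 in the mean, Tgfbr1 was 0.10 under the smSocs3-KO label and Ltbp1 0.0025 in the mean. The median of the array as the scale moved the median response of all genes from -0.05 to 0.16, and Smad3 to 0.079, Tgfb3 to 0.14 and Tgfbr1 to 0.15 in WT, Tgfbr1 to 0.16 and Tgfbr3 to 0.061 under the smSocs3-KO label, and Ltbp1 to 0.13 and Tgfbr1 to 0.15 in the mean. Tgfbr2 in WT was -0.14 with quantile normalization, -0.14 in the authors' table and -0.25 as the mean of its probes, and Smad3 in the mean was -0.00047 with the slide block. Without an array, Smad3 ranged from -0.27 to 0.024, Tgfb3 from -0.26 to 0.061 and Tgfbr1 from -0.15 to 0.17 in WT, Tgfb2 from -0.035 to 0.41 and Tgfbr1 from -0.13 to 0.068 under the smSocs3-KO label, and Ltbp1 from -0.19 to 0.011, Smad3 from -0.00047 to 0.25 and Tgfbr1 from -0.10 to 0.057 in the mean.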
